A study of Arabidopsis thaliana with 6 samples.

Results

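The miR172 family of Arabidopsis thaliana was followed in small RNA from whole seedlings of wild type (WT) and of the mutant aar2-1, with 3 libraries of each genotype. Its members were all entries of the deposited miRNA tables in which a joined name is that of a miR172 member, of either arm. There were 4 such entries of 197, holding 7 of the 8 mature miR172 names in the RefSeq annotation of TAIR10.1; miR172d-5p was not analysed here. All seedlings were 14 days old and grew on 1/2 MS medium with 16 h of light and 8 h of dark per day. WT is labelled wild type with no ecotype, and aar2-1 is, by its name, 1 mutant allele of AAR2, a gene whose yeast and animal counterparts act in spliceosome assembly. The labels do not describe the lesion of the allele. The study compared miRNA accumulation between these genotypes, and the tables hold no mRNA, so neither AAR2 nor any target of miR172 was measured, and neither the genotype labels nor the tissue could be checked against a transcript.

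In Arabidopsis, miR172 represses a small group of AP2-like transcription factors that hold back adult leaf traits and flowering, by blocking their translation and by cutting their mRNAs. It is the later partner in the age pathway: the abundant miR156 of young plants represses SPL transcription factors, and as miR156 declines SPL proteins activate MIR172 genes, MIR172b among them. Both are cut from hairpin precursors by DCL1, in which the arm that enters AGO1 is the guide and the other arm is the largely discarded partner strand. For miR172 the guide comes from the 3′ arm of the hairpin.

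The mature sequences, from RefSeq on TAIR10.1 and written 5′ to 3′ with the seed (bases 2 to 8) in capitals, are shown because the 3 entries of the 3′ arm differ at single bases and the members joined in an entry not at all.
miR172a and miR172b-3p: aGAAUCUUgaugaugcugcau
miR172c and miR172d-3p: aGAAUCUUgaugaugcugcag
miR172e-3p: gGAAUCUUgaugaugcugcau
miR172b-5p and miR172e-5p: gCAGCACCauuaagauucac
The 3 entries of the 3′ arm share the seed GAAUCUU and are 21 bases long. Counted from 1 at the 5′ end of miR172a, miR172c and miR172d-3p differ from it by U21G at the last base, and miR172e-3p by A1G at the first. The 5′ arm entry is 20 bases long and has the seed CAGCACC. Each joined entry matched the genome exactly at 2 places, its own members, and miR172e-3p at 1, so the tables give the sum of both loci for every joined entry and cannot assign reads to MIR172a or MIR172b singly.

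The 5 hairpins lie between genes, with no other annotated gene over any of the 7 mature sequences. MIR172a (AT2G28056) spans chr2:11942914-11943015 on the minus strand, MIR172b (AT5G04275) chr5:1188207-1188301 on the minus strand, MIR172c (AT3G11435) chr3:3599776-3599908 on the minus strand, MIR172d (AT3G55512) chr3:20587904-20588027 on the plus strand, and MIR172e (AT5G59505) chr5:23988472-23988596 on the plus strand. MIR172b and MIR172e are shown as RNA with their mature products in capitals, since they share a 5′ arm product but give 3′ arm products that fall in different entries.
MIR172b: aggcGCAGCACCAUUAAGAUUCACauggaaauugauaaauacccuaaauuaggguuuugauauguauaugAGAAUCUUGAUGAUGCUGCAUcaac
MIR172e: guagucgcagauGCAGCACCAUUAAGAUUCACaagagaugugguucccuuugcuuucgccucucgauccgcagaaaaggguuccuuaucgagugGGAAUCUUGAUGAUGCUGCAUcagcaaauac

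The sites of the AP2-like targets are shown to place the bases at which the entries differ. A search of the spliced mRNAs of 31342 RefSeq genes for the best match to the complement of miR172a found 6 genes with at most 3 mismatches (0.0191% of genes), among them 5 AP2-like genes. In the lines below, capitals mark bases that do not form a Watson-Crick pair with miR172a.
TOE2: augcagcaucaucaGgauucu
AP2: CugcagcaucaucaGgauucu
RAP2.7 (TOE1): CAgcagcaucaucaGgauucu
TOE3: UGgcagcaucaucaGgauucu
SMZ: UugcagcaucaucaGgauucC
SNZ: UugUagcaucaucaGgauucC
The first 5 lie in coding sequence, at chr5:24210889-24210909 (TOE2, plus strand), chr4:17403019-17403039 (AP2, plus strand), chr2:12226233-12226253 (RAP2.7, minus strand), chr5:26802175-26802195 (TOE3, minus strand) and chr3:20373774-20373794 (SMZ, minus strand). The SNZ site, with 4 mismatches, lies outside the coding sequence at chr2:16389066-16389086 on the minus strand. TOE1, TOE2, TOE3, SMZ and SNZ are repressors of flowering, and AP2 is also a regulator of floral organ identity. The base opposite position 21 of the miRNA, the one that separates miR172c and miR172d-3p from miR172a, is the first base of each site. With miR172c and miR172d-3p in place of miR172a, the mismatches go from 2 to 1 in AP2 and from 3 to 2 in RAP2.7, whose sites begin with C, and from 1 to 2 in TOE2. With miR172e-3p they go from 3 to 2 in SMZ and from 4 to 3 in SNZ, whose sites end with C, and up by 1 in TOE2, AP2, RAP2.7 and TOE3. A match is a description of these letters and not a measurement of repression.

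The implied depth was 7062198 to 11524176 reads per library, and the values are in RPM, reads scaled to a common library size, of which 1 read was worth 0.0868 to 0.142. All miRNA entries together summed to 46282 to 53127 RPM in the WT libraries and to 18430.1 to 27681 RPM in those of aar2-1, so the tested miR172 differences below are set beside those of all entries or families. In whole seedlings, fewer cells that make a miRNA and less of it per cell cannot be told apart. RPM is also a share of a denominator that is not given. Less miRNA and more of the other RNA counted there cannot be told apart either. Intervals given for single libraries are exact binomial 95% intervals and cover counting error only. Read numbers were inferred by taking the smallest value of each library as 1 read, and the intervals rest on that.

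The guide shared by MIR172a and MIR172b made up most of the family. The entry miR172a/miR172b-3p had 65.9, 23.0 and 55.3 RPM in WT replicates 1 to 3 and 40.5, 23.1 and 15.4 RPM in aar2-1 replicates 1 to 3. The genotypes overlapped through WT replicate 2, which lay below aar2-1 replicate 1 and beside aar2-1 replicate 2. Mean abundance was 48.1 ± 22.4 RPM for WT and 26.3 ± 12.9 RPM for the mutant (SD over 3 libraries).

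In limma on log2(RPM + 1), the difference of miR172a/miR172b-3p (aar2-1 minus WT) was -0.82 (SE 0.42, 95% interval -1.71 to 0.08), with a Benjamini-Hochberg adjusted p of 0.0944 over the 131 entries with a mean of at least 1 RPM, and thus did not pass 0.05. Without WT replicate 2 it was -1.27 (limma adjusted p 0.00536) and without aar2-1 replicate 1 it was -1.17 (limma adjusted p 0.0161), both past the threshold. It was -0.50 without aar2-1 replicate 3 (limma adjusted p 0.307) and -0.53 without WT replicate 1 (limma adjusted p 0.303), and it did not pass without WT replicate 3 or aar2-1 replicate 2 either. The estimate turned positive, from 0.18 to 0.52, under each of 4 scalings that set the libraries to a common miRNA level, and none of these 4 values passed. Of these, centring on the library median gave 0.52, and it also brought the median over all tested entries to 0.52.

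The spread between replicates of this entry was larger than counting error. WT replicate 2 held 224 reads of it (20.1 to 26.2 RPM) and WT replicate 1 held 618 (60.8 to 71.4 RPM), so their intervals lay far apart. Among the 69 entries with a mean of at least 10 RPM, the highest WT library exceeded the lowest by a median factor of 1.36, against 2.87 for miR172a/miR172b-3p, and 1 entry had a larger factor. In aar2-1 the median factor was 1.72, against 2.62 for miR172a/miR172b-3p, and 8 entries had a larger one. WT replicate 2 was the lowest WT library in 46 of these 69 entries.

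**Figure D1:**
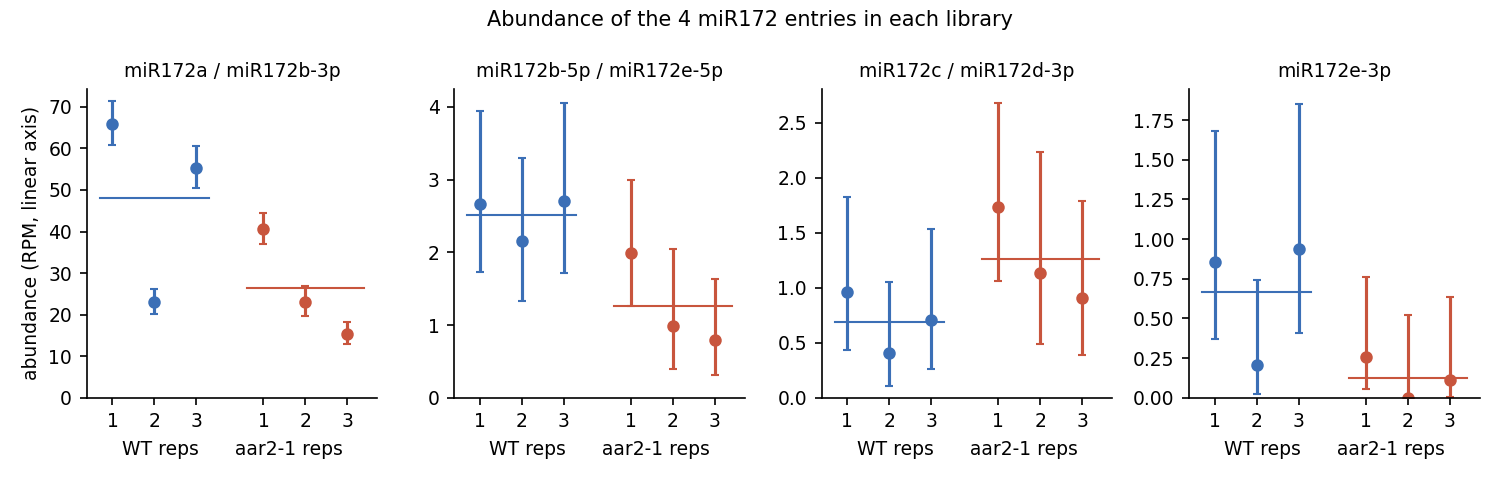
Abundance in RPM (linear axes from 0, a scale for each panel) of the 4 miR172 entries in each library, WT in blue and aar2-1 in red, with replicates 1 to 3 on the horizontal axis; bars are exact binomial 95% counting intervals and lines the genotype means. WT replicate 2 at 23.0 RPM sits among the aar2-1 libraries for miR172a/miR172b-3p, and the genotypes do not overlap for miR172b-5p/miR172e-5p, where the counting intervals do.

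The partner strand of MIR172b and MIR172e was rarer and steadier in WT. The entry miR172b-5p/miR172e-5p had 2.67, 2.15 and 2.70 RPM in WT and 2.00, 0.991 and 0.795 RPM in aar2-1, from 25, 21 and 23 reads and 23, 7 and 7 reads. All 3 aar2-1 values lay below all 3 WT values, as they did for 59.5% of the 131 tested entries. Mean abundance was 2.51 ± 0.308 RPM for WT and 1.26 ± 0.644 RPM for the mutant (SD, n = 3).

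miR172b-5p/miR172e-5p passed the threshold as lower in aar2-1, with a log2 difference of -0.67 (SE 0.25, 95% interval -1.20 to -0.14, limma adjusted p 0.0299), a call shared by 61.1% of the tested entries (63.4% passed in either direction and 2.29% as higher). It was thus the only call among the 2 miR172 entries that reached 1 RPM. The call was lost without WT replicate 1 (limma adjusted p 0.0587), WT replicate 3 (0.0798), aar2-1 replicate 2 (0.127) or aar2-1 replicate 3 (0.111), with differences from -0.63 to -0.52. Under the scalings it was also lost: the difference was -0.01 with a median ratio factor and with quantile normalization and 0.10 relative to the miRNA total, and centring each library on its median made it 0.67 and past the threshold as higher (limma adjusted p 0.043). After that centring 55 of the 131 tested entries were called higher, and the median difference over all of them was 0.52.

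The other 2 entries had means of 0.975 and 0.396 RPM, under the 1 RPM needed for the test, and the order of their genotype means was opposite. The entry miR172c/miR172d-3p, the guide of MIR172c and MIR172d, was covered by 9, 4 and 6 reads in the WT libraries and by 20, 8 and 8 in the mutant ones, which is 0.960, 0.410 and 0.705 RPM against 1.74, 1.13 and 0.908 RPM. The genotypes overlapped, since aar2-1 replicate 3 lay below WT replicate 1. They averaged 0.692 ± 0.275 RPM for WT and 1.26 ± 0.428 RPM for the mutant (SD, n = 3). With no filter on low values, its log2 difference was 0.41 (SE 0.21, 95% interval -0.04 to 0.87, limma adjusted p 0.112) beside a median of -0.63 over the 197 entries, short of the threshold, and it was also positive under the 4 scalings, from 0.87 to 2.01.

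The entry miR172e-3p, the guide of MIR172e, was covered by 8, 2 and 8 reads in the WT libraries and by 3, 0 and 1 in the mutant ones, or 0.854, 0.205 and 0.941 RPM against 0.260, 0 and 0.114 RPM. WT replicate 2 lay below aar2-1 replicate 1, and the aar2-1 libraries held no more than the 3 reads taken as the floor, which corresponds to 0.260 to 0.425 RPM per aar2-1 library. With no filter on low values the difference was -0.54 (SE 0.19, limma adjusted p 0.0315), where 46.2% of the 197 entries were called lower. It was negative with a median ratio factor, quantile normalization and relative to the miRNA total, and positive (0.80) after centring on the median.

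Summed over the 4 entries, miR172 had 70.4, 25.7 and 59.6 RPM in WT and 44.5, 25.2 and 17.3 RPM in aar2-1. The genotypes overlapped by the same library as the leading entry, since WT replicate 2 lay below aar2-1 replicate 1. The means were 51.9 ± 23.3 RPM and 29.0 ± 14.0 RPM (SD, n = 3), a ratio of 1.79 of WT to aar2-1. In the fit on 76 families, in which entries of 1 miR number were summed, the log2 difference was -0.80 (SE 0.44, 95% interval -1.77 to 0.17, limma adjusted p 0.126). A change of the family was thus not detected in this fit of genotype alone, while the interval includes both 0 and the median of all families, -0.86.

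The family stood near the middle of the shift seen over all miRNAs. The median log2 difference was -0.86 over the 76 families and -0.83 over the 131 entries; 43 families had a more negative value than miR172 and 32 a less negative one. Among entries, miR172a/miR172b-3p had 66 more negative and 64 less negative neighbours, and miR172b-5p/miR172e-5p had 86 and 44. The difference of miR172b-5p/miR172e-5p, an entry of few reads, changed with the pseudocount. It was -1.03 with 0.1 RPM and -0.27 with 5 RPM, beside medians of -1.03 and -0.58 over the tested entries. The error of the miR172 sum was large among families, with an SE of 0.44 against a median of 0.28, and 1 family had a larger one. Over all families 63.2% passed the threshold, 59.2% as lower and 3.95% as higher in aar2-1.

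**Figure D2:**
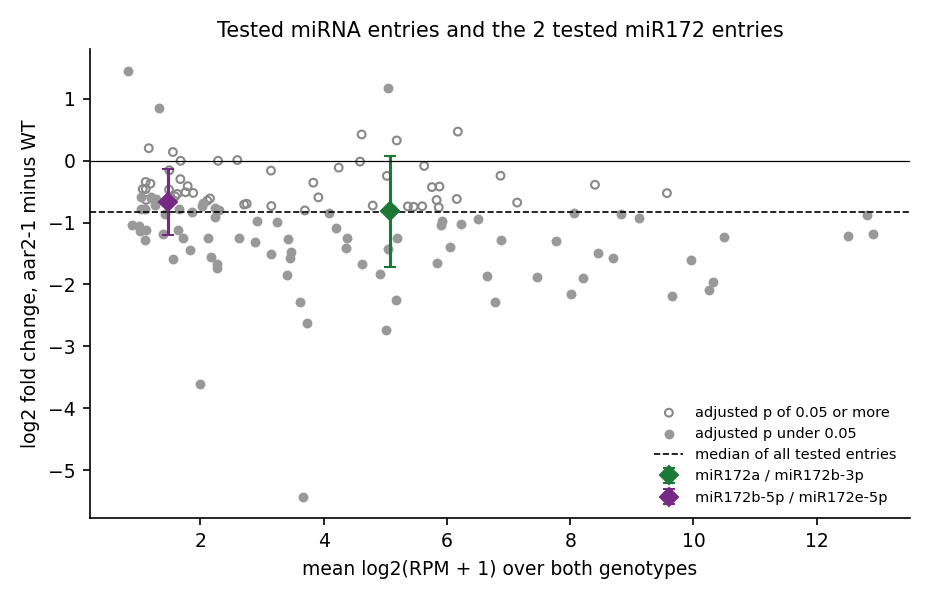
Log2 fold change (aar2-1 minus WT, on log2(RPM + 1)) against mean log2(RPM + 1) for the 131 tested entries, with the 2 tested miR172 entries as diamonds and their 95% limma intervals; filled points passed an adjusted p of 0.05. Both diamonds lie close to the dashed median of -0.83, and the interval of miR172a/miR172b-3p crosses 0.

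The genotypes did not overlap in the share of a minor guide within the family. The entry miR172c/miR172d-3p held 1.36%, 1.59% and 1.18% of the miR172 RPM in WT and 3.90%, 4.49% and 5.26% in aar2-1, so all 3 aar2-1 shares lay above all 3 WT shares. Of the 63 minor entries of other families with reads in every library, 18 (28.6%) also had shares within their family that did not overlap between genotypes, 13 of them higher in aar2-1. The means were 1.38% ± 0.206 and 4.55% ± 0.684 (SD, n = 3), 3.30-fold apart, with a two-sided exact permutation p of 0.10, the smallest that 3 libraries against 3 can give. Adjusted by Benjamini-Hochberg over the 4 within-library measures tested here, p was 0.40. This share and its comparison with other families were chosen for description after its values were seen. In reads, it was 19 of 1418 in WT (1.34%, exact binomial 95% interval 0.809 to 2.09%) and 36 of 843 in aar2-1 (4.27%, 3.01 to 5.86%), with the libraries of a genotype pooled; these intervals cover counting error only and are no test of the genotypes. Leaving out each library in turn kept the difference between 2.82 and 3.50 percentage points. Since it is a ratio within a library, it does not depend on how the libraries are scaled. It rests on 4 to 20 reads per library, and the entry differs from miR172a/miR172b-3p by the last base alone (U21G), so how reads with a changed or missing end base were assigned could alter it; this was not tested.

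The ratio of the arms overlapped between genotypes. The RPM of miR172a/miR172b-3p divided by that of miR172b-5p/miR172e-5p, the only pair of arms with reads in all 6 libraries, was 24.7, 10.7 and 20.4 in WT and 20.3, 23.3 and 19.4 in aar2-1. The low value was WT replicate 2, and the other 5 libraries lay between 19.4 and 24.7. The mean log2 ratio was 4.13 ± 0.636 in WT and 4.39 ± 0.136 in aar2-1 (SD, n = 3), a difference of 0.26 with a two-sided exact permutation p of 0.90 (adjusted over the 4 measures, 1.00). Each entry of this pair also holds a product of another hairpin, so the ratio is not that of MIR172b alone. For 37 other hairpins with both arms at 1 RPM or more and with reads in every library, the same difference ran from -1.90 to 2.43 with a median of -0.13, and 29 were larger in size than that of miR172.

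miR156 and miR157, which lie upstream of miR172 in the age pathway, had differences of similar size to that of miR172 at the deposited scale, of which that of miR156 passed the threshold. The miR156 family had 945, 821 and 953 RPM in WT and 666, 453 and 376 RPM in aar2-1. All its aar2-1 values lay below its WT values. Of single tested entries 59.5% separated in this way, and the share of families was not computed. The log2 difference of the miR156 family was -0.90 (SE 0.27, limma adjusted p 0.0138). This call was lost without WT replicate 1 (limma adjusted p 0.0569), WT replicate 3 (0.0629), aar2-1 replicate 2 (0.0643) or aar2-1 replicate 3 (0.06). The miR157 family had 373, 230 and 296 RPM in WT and 274, 149 and 110 RPM in aar2-1, with overlapping genotypes and a log2 difference of -0.83 (SE 0.37, limma adjusted p 0.0665). These sums take in both arms. Of the miR157 entries, miR157a-5p/miR157b-5p/miR157c-5p (-0.68) was not called. The entries miR157a-3p/miR157b-3p (-0.98) and miR157c-3p (-1.24) were called lower, as were 61.1% of tested entries. Under the 4 scalings miR156 was not called lower, and it passed as higher after centring on the median, where 33 of the 76 families were called higher.

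The balance of the pathway, miR172 divided by the sum of miR156 and miR157, was 0.0534, 0.0245 and 0.0477 in WT and 0.0474, 0.0418 and 0.0355 in aar2-1. All 3 aar2-1 values lay between the lowest and the highest WT value. On the log2 scale the means were -4.66 ± 0.609 and -4.60 ± 0.209 (SD, n = 3), a difference of 0.06 with a two-sided exact permutation p of 1.00. The difference ran from -0.29 to 0.27 when each library was left out, with WT replicate 2 moving it most. Each sum takes in both arms, so the ratio is not that of the guides alone. As a share of all miRNA RPM, miR172 was 0.133%, 0.0556% and 0.113% in WT and 0.161%, 0.121% and 0.0937% in aar2-1, again with overlap (two-sided exact permutation p = 0.50, adjusted 1.00).

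**Figure D3:**
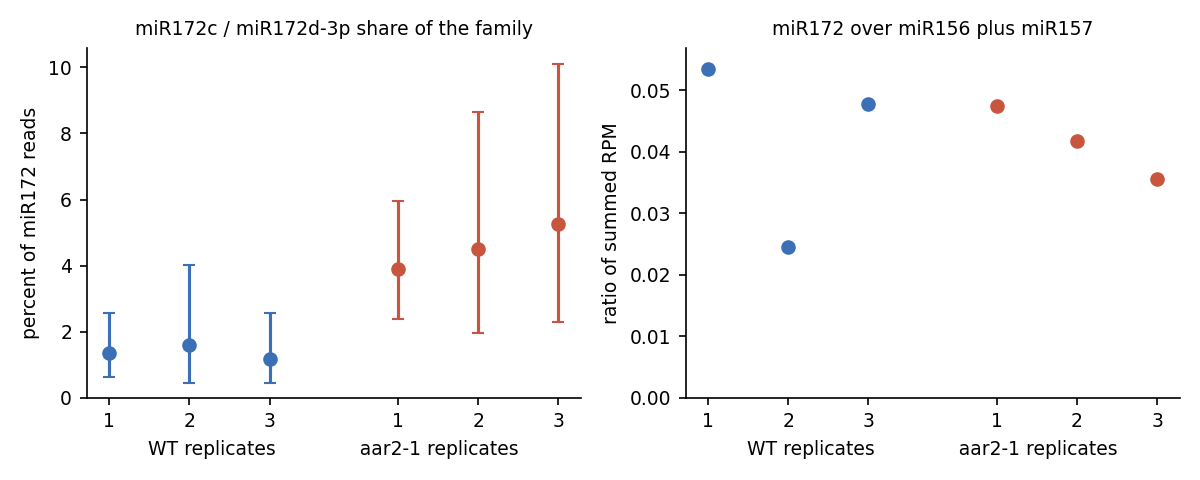
Left, the share of miR172 reads held by miR172c/miR172d-3p in each library, in percent, with exact binomial 95% intervals; right, the RPM of miR172 divided by the RPM of miR156 plus miR157. WT is in blue and aar2-1 in red, and both axes start at 0. The shares of 1.18 to 1.59% in WT and 3.90 to 5.26% in aar2-1 do not overlap, whereas the aar2-1 ratios of 0.0355 to 0.0474 lie within the WT range.

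A list of 6 families of miRNAs that act in phase change and leaf development was read from the same fit. It comprised miR156, miR157, miR172, miR159 (which represses GAMYB-like MYB genes), miR319 (TCP genes of leaf growth) and miR390 (the trigger of the tasiRNAs against ARF3 and ARF4). Of these 6, miR156, miR159 and miR319 passed as lower in aar2-1 and none as higher, beside 59.2% of all families called lower; their log2 differences were -0.90, -1.20 and -0.96. miR390 had 97.2, 59.8 and 68.3 RPM in WT and 68.9, 39.8 and 27.7 RPM in aar2-1, a difference of -0.78 (limma adjusted p 0.0847). Their median of -0.86 equals that of all families to 2 decimals. With a median ratio factor, with quantile normalization or relative to the miRNA total none of the 6 passed. After centring on the median, miR156, miR157 and miR390 passed as higher, beside 33 of the 76 families called higher. Without WT replicate 2, 5 of the 6 passed as lower, beside 49 of the 76 families. Without aar2-1 replicate 1 all 6 passed as lower, miR172 included, beside 61 of the 76 families. Only miR159 and miR319 passed without WT replicate 1, WT replicate 3, aar2-1 replicate 2 or aar2-1 replicate 3. In those fits 33 to 40 of the 76 families were called lower.

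Other miRNAs followed the same profile over the libraries. Among the 68 entries outside the family with a mean of at least 10 RPM, the Pearson correlation of log2(RPM + 1) with the miR172 sum over the 6 libraries was highest for miR394a/miR394b-5p (0.98), miR173-5p (0.98) and miR396a-5p (0.97), against a median of 0.79. With the genotype means taken off, it was highest for miR394a/miR394b-5p (0.99), miR161.2 (0.99) and miR396a-5p (0.98), against a median of 0.82, and 23 of the 68 were above 0.9. These points share their libraries and their scaling, so the values are descriptions. The named entries were picked for this likeness, so low libraries shared with miR172 come with the choice. miR394 represses the F-box gene LCR, miR396 represses GRF genes and miR173 triggers tasiRNAs. The entry miR394a/miR394b-5p had 153, 62.8 and 124 RPM in WT and 86.5, 45.2 and 35.7 RPM in aar2-1, with WT replicate 2 below aar2-1 replicate 1 as in miR172. The entry miR396a-5p had 537, 192 and 383 RPM in WT and 258, 129 and 77.6 RPM in aar2-1, with the same overlap. WT replicate 2 had the largest implied depth of the WT libraries, 9754859 reads, and the smallest miRNA total, 46282 RPM, and the part of either in its low values was not tested.

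**Figure D4:**
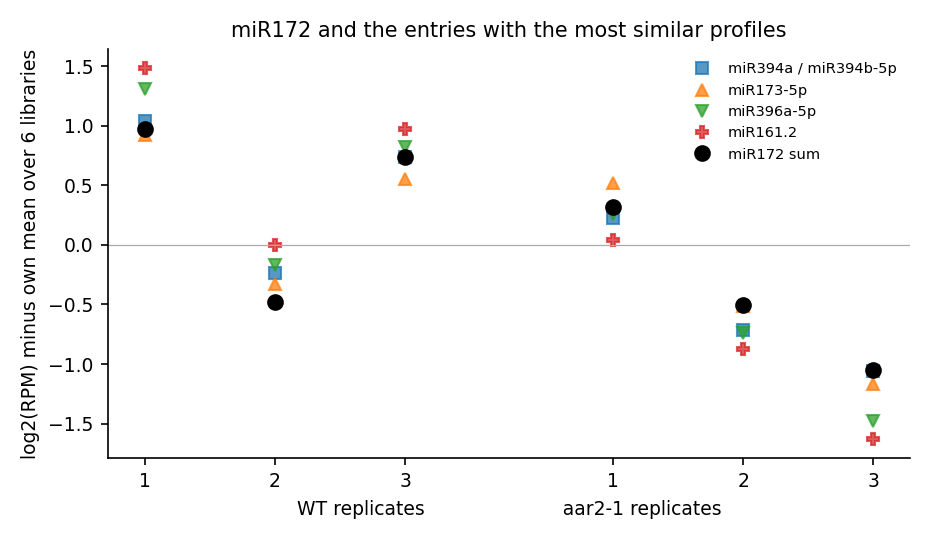
Log2(RPM) of the miR172 sum (black) and of the 4 entries with the most similar profiles, each minus its own mean over the 6 libraries, for WT replicates 1 to 3 and aar2-1 replicates 1 to 3. In WT, replicate 2 is the lowest library for all 5, as it is for miR172 at 25.7 RPM, and aar2-1 replicate 3 is the lowest of all 6 libraries.

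How the libraries are scaled decided the sign of the family's difference. With the deposited RPM it was -0.80. It was 0.25 with a median ratio factor on RPM, 0.38 relative to the miRNA total, 0.44 with quantile normalization and 0.54 with centring on the library median, settings that raised the median of all entries by 0.84, 0.96, 0.89 and 1.34. None of these 5 values passed the threshold. The family passed as lower without WT replicate 2 (-1.24, limma adjusted p 0.0236) and without aar2-1 replicate 1 (-1.16, limma adjusted p 0.0145), and was -0.50 without aar2-1 replicate 3 and -0.53 without WT replicate 1, neither past the threshold. With all 6 libraries and a replicate block it also passed as lower (-0.80, limma adjusted p 0.025), in a fit that called 53 of the 76 families lower.

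**Figure D5:**
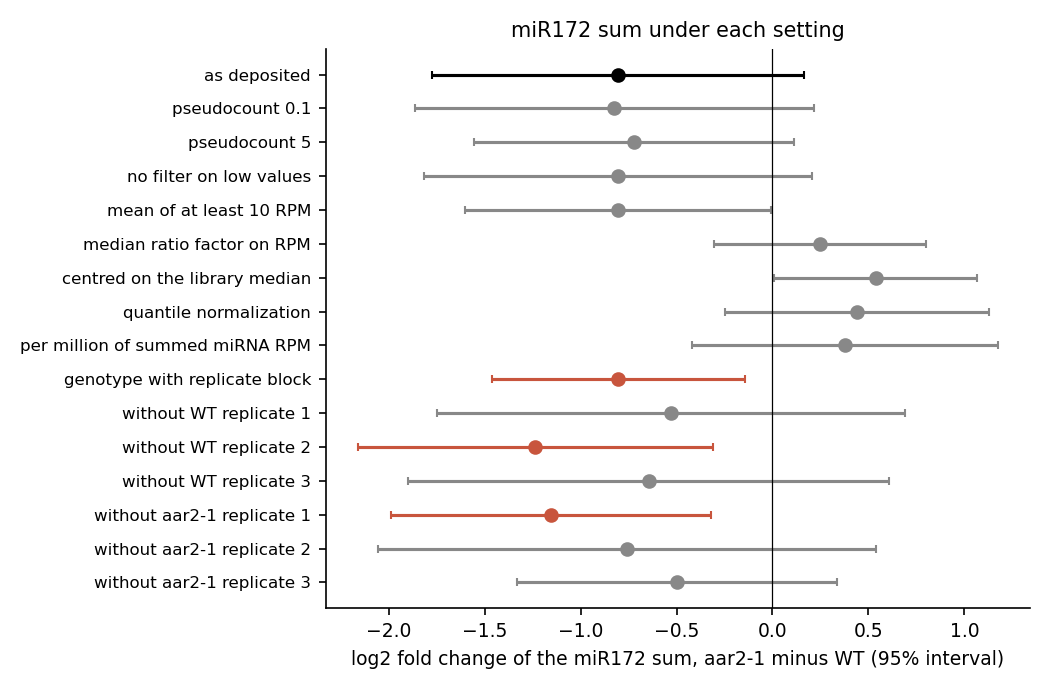
Log2 fold change of the miR172 sum (aar2-1 minus WT) with its 95% limma interval under each setting; black is the value as deposited, red marks an adjusted p under 0.05 and grey the rest. The scalings move the estimate from -0.80 to between 0.25 and 0.54, and the fits without WT replicate 2 and without aar2-1 replicate 1 place it at -1.24 and -1.16. The fit with a replicate block leaves it at -0.80 and is also red.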

How the data were processed

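Per the labels, RNA was extracted with TRI Reagent from ground seedlings and made into libraries with a NEBNext small RNA kit for Illumina; the submitters' processing notes name cutadapt, Bowtie and the build TAIR10, without versions. The deposited tables give 1 value per miRNA entry and library. The unit was inferred from the deposited values as RPM: each was a whole multiple, within 0.001, of the smallest value of its library, taken as 1 read. The denominator, read lengths kept, mismatches allowed and handling of multiple matches are not given in the sources used here. These settings bear on miR172, whose 3′ arm entries differ at 1 end base. The deposited tables hold no positions; sequences and coordinates are from RefSeq TAIR10.1.

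Genotype and replicate number came from the sample titles. The labels call the libraries biological replicates but do not say how the seedlings were grown or pooled. Entries and families (summed by the miR number of their first name) with a mean of at least 1 RPM were fitted with limma 3.58.1 (R 4.3.3) on log2(RPM + 1), variance trend, genotype only, two-sided, Benjamini-Hochberg over all tested entries or families, threshold 0.05. The fit was first tested on simulated data with changes in both directions and no shift shared by the entries. That test does not cover a shift such as the one seen here. Values with 1 number per library were compared by exact permutation (smallest p 0.10 with 3 against 3). Python 3.11.15, pandas 2.3.3, numpy 2.4.6, scipy 1.17.1 and matplotlib 3.10.9 were used. Every miR172 entry was named, together with miR156, miR157, the list of 6 phase change families and the entries most correlated with the miR172 sum (the 3 highest by each of 2 measures). The members and lists were chosen with earlier results of these data known, and the share of miR172c/miR172d-3p was added after seeing its values. Alternatives were other pseudocounts, filters and scalings, a replicate block and leaving out each library. The median ratio factor is the median, over entries of at least 10 RPM, of a library's ratio to the geometric mean of the libraries.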

Additional observations from a re-analysis of the deposited data

How the results depend on the processing

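The log2 difference of the miR172 sum (-0.80) reversed with a median ratio factor (0.25), centring on the library median (0.54), quantile normalization (0.44) and scaling to the miRNA total (0.38), and that of miR172a/miR172b-3p with the same 4 (0.23, 0.52, 0.18 and 0.36). Each of these sets the libraries to a common miRNA level, so a higher median over all entries follows from its construction. In the same order of settings that median was 0.01, 0.52, 0.06 and 0.13, against -0.825 as deposited. Centring thus did more than take off the shift of the median entry. The place of miR172 beside that median was not tested. The difference of miR172b-5p/miR172e-5p reversed with centring (0.67) and scaling to the miRNA total (0.10). The number of miR172 entries past the threshold, 1 with the values as deposited, was 2 with no filter, where 4 entries could be tested, and 0 with a mean of at least 10 RPM, which left 1 entry to test, with the median ratio factor, with quantile normalization and relative to the miRNA total. Of the 6 phase change families 3 passed as deposited, and 0 with the median ratio factor, quantile normalization and the miRNA total.

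Over all entries, 83 passed as deposited (80 lower, 3 higher), 45 with a mean of at least 10 RPM (44 lower, 1 higher), 49 with the median ratio factor (27 lower, 22 higher), 34 with quantile normalization (16 lower, 18 higher) and 38 relative to the miRNA total (16 lower, 22 higher); centring gave 12 lower and 55 higher. The difference in the miR172 share of all miRNA RPM was 0.105 percentage points without the 3 entries of largest mean in the denominator, against 0.0249 with them. A smaller denominator raises every share, so these differences are on unlike scales. The two-sided exact permutation p was 0.30 without them and 0.50 with them.

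With the replicate block the difference of the sum remained -0.80, as the balanced design fixes, and passed (limma adjusted p 0.025). In that fit 2 miR172 entries and 6 phase change families passed, beside 95 of 131 entries and 53 of 76 families called lower. After the genotype means were taken off, same-numbered libraries correlated at 0.49, 0.05 and -0.15 for replicates 1, 2 and 3. The mean over libraries of different numbers was -0.06. These 3 values are too few to decide whether the replicate number marks a shared batch. Fitting the block also leaves less from which to estimate the error of an entry. Exact sign flips over the replicate numbers (replicate block) gave p of 0.25 for the miR172c/miR172d-3p share and 0.50 to 1.00 for the other within-library measures.

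Leaving out each library in turn, the sum ran from -1.24 to -0.50 and miR172a/miR172b-3p from -1.27 to -0.50. The number of miR172 entries past the threshold ran from 0 to 2 and that of the phase change families from 2 to 6. In the same fits 33 to 61 of the 76 families were called lower. Pseudocounts of 0.1 and 5 changed no call of the miR172 sum or of the 2 tested entries. The planned tests on counts were not run, since the tables hold too few low values for reads to be recovered to the standard such a test needs. Depth limits miR172c/miR172d-3p and miR172e-3p most, with 4 to 20 and 0 to 8 reads per library.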
